A study of Sus scrofa with 19 samples.

Results

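CD antigens are cell surface molecules numbered by the cluster of differentiation system, which grew out of antibodies raised against human leukocytes. The antigens described here are the genes of the pig (Sus scrofa) whose symbol is CD followed by a number and at most 1 letter, plus MS4A1, which encodes the antigen known as CD20. A gene entered through an array probe whose RefSeq accession maps to such a symbol and which was well above background on at least 4 of 19 arrays. Its brightest such probe, by mean signal, stood for the gene. All 40 symbols of this form that the array names had such a probe, out of 3010 named genes and 39094 probes tested. The reference table of pig genes holds 72 symbols of this form, and the others were not analysed here.

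Endometrium, the lining of the uterus, was taken from crossbred gilts (young female pigs) aged 8 months, all of the same genetic background. Every gilt had been synchronised and, on days 8 to 9 of the cycle, had a cannula placed in each uterine horn by surgery. Each was infused at intervals of 4 h over 24 h on days 11 to 12 after oestrus began. Hormone horns (6 arrays, gilts 36, 38, 40, 41, 44 and 47) were given estradiol (E2) at 33.3 µg and prostaglandin E2 (PGE2) at 200 µg with every infusion. Placebo horns (5 arrays) were the opposite horns of the same gilts except gilt 40 and received vehicle alone, 5 mL of saline containing ethanol at 1% by volume. Control gilts 9, 14, 28 and 46 received vehicle in both horns (8 arrays, 4 marked L and 4 marked P, marks that the labels do not explain). All placebo horns were marked L and all hormone horns P, except that of gilt 40, which was marked L. The horn of each treated gilt that received hormones was chosen at random. A placebo horn thus belonged to an animal that also received hormones, and all groups had undergone the same surgery.

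The endometrium holds epithelium, stromal fibroblasts, vessels and resident leukocytes, and RNA of the whole tissue carries the antigens of all of them. T cells are recognised by the CD3 chains of their antigen receptor and by the co-receptors CD4 and CD8, B cells by CD79A and MS4A1, and monocytes and macrophages by CD14 and CD163. Other antigens, such as the tetraspanins CD9 and CD81 and the complement regulators CD46, CD55 and CD59, sit on most cells. In the pig, the conceptus secretes estrogen and prostaglandin E2 in the period in which pregnancy is recognised, and leukocytes are known to gather in the endometrium around it. By known expression, 8 members were placed with T and natural killer (NK) cells, 6 with B cells, 11 with myeloid cells, 3 with leukocytes at large and 12 with non-leukocyte or widely expressed antigens. CD70, placed in that last class, is also known on activated lymphocytes, and several others are shared between lineages.

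Levels are log2 of the array signal relative to the 75th percentile of the same array, and most values below are given as log2 units above or below the mean of the 4 control gilts. Values of placebo horns are listed for gilts 36, 38, 41, 44 and 47 in that order. Of the 40 members, 38 were well above background on all 19 arrays, and CD84 was on 17. Between 79.1% and 88.4% of spots per array were well above background and 0 were saturated. Of the epithelial marker list 4 of 7 genes were measured, of the stromal list 4 of 11 and of the endothelial list 6 of 8, and all of these were well above background on 19 arrays. The number of gilts limits the precision of what follows.

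Both horns of gilt 47 stood apart from all other arrays for most leukocyte antigens. They held the 2 highest levels of the 19 arrays for 25 of 40 members, against 9.24% of all probes and 15.8% of named genes. This was so for 8 of 8 T and NK antigens, 6 of 6 B cell antigens and 7 of 11 myeloid antigens, and for 2 of 12 non-leukocyte antigens, CD274 and CD47. In 21 members both horns lay over 2 log2 units above the control mean, which 3.08% of all probes and 7.29% of named genes did. In whole tissue, more cells of a type and more RNA per cell cannot be told apart. Apart from control gilt 9 and treated gilt 36, whose arrays shared a slide, every gilt had a slide of its own, so gilt 47 and its slide cannot be told apart either. Arrays were scanned on 3 days, each holding control and treated gilts. The hormone horn of gilt 36 had the lowest 75th percentile of all arrays (597, highest 983). For most of the leukocyte antigens named below, the difference in hormone horns is therefore given with and without gilt 47.

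**Figure D1:**
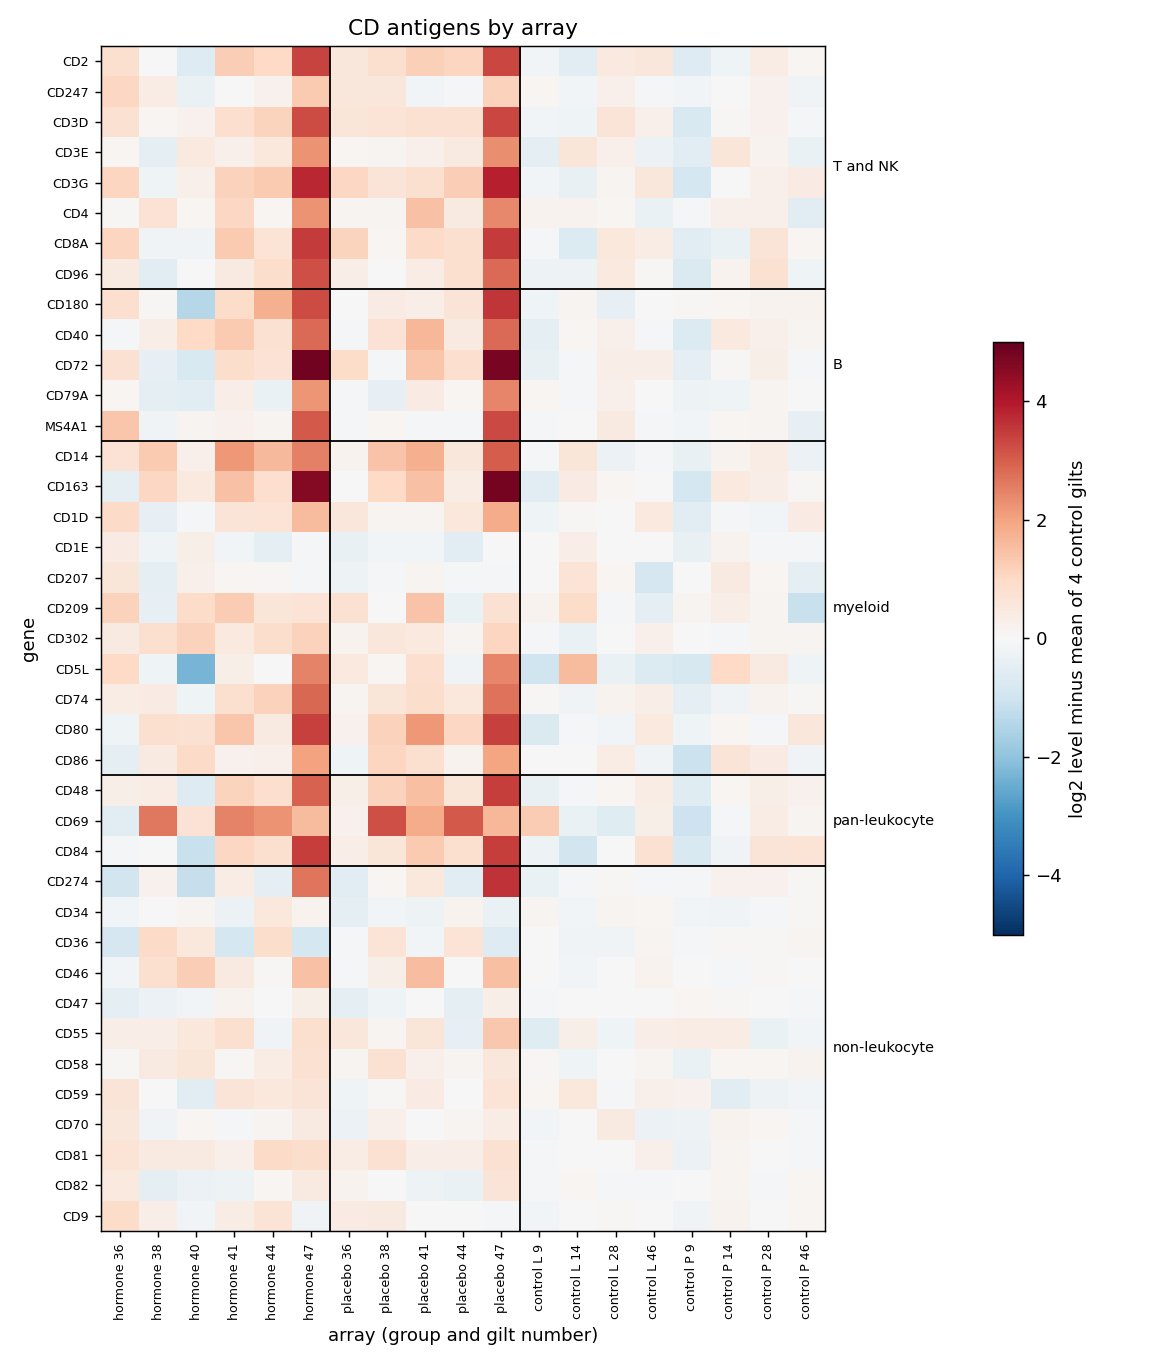
Level of the CD antigens (rows, by class) on each of the 19 arrays (columns, by group and gilt number), as log2 units above (red) or below (blue) the mean of the 4 control gilts. Both columns of gilt 47 are red through the T and NK, B and most myeloid rows, while the rows of non-leukocyte antigens are pale apart from CD274, CD46 and CD36.

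The questions that follow from the design are how hormone horns differed from control gilts, how placebo horns of the same treated animals differed from control gilts, and how the horns of an animal differed from each other.

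In hormone horns, 3 of 40 antigens rose relative to control gilts and 0 fell (limma, adjusted p under 0.05 over all probes). They were CD302, a C-type lectin of macrophages and dendritic cells, CD81, a tetraspanin found on most cells, and CD14, the lipopolysaccharide co-receptor of monocytes and macrophages. The 3 calls make 7.5% of the members, against 11.8% of all probes and 15.6% of named genes called in this comparison (6.9% and 13.2% called higher, 4.87% and 2.39% lower). All 3 were higher, so their share lay close to that of all probes called higher and below that of named genes. At an unadjusted p under 0.05 the count was 12 of 40, against 27.1% of all probes and 32.9% of named genes. A difference above 0 was seen in 36 of 40 members, against 51.5% of all probes and 66% of named genes. The median difference over the members was 0.67 log2 units, over named genes 0.17 and over all probes 0.0137. Without gilt 47 the median over the members was 0.35, and 0.35 in placebo horns, and in hormone horns 34 of 40 were above 0. Within scan days 1, 2 and 3, the members above 0 in hormone horns were 36, 24 and 36 of 40. Their medians were 0.73, 0.18 and 1.23, with gilt 47 on day 3. Shares of all probes above 0 were not computed for these fits.

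CD302 lay 0.45 to 1.17 (median 0.83) log2 units above the control mean in hormone horns, at 0.17, 0.58, 0.51, 0.16 and 1.06 in placebo horns, and between -0.33 and 0.26 (median -0.0175) in control horns. Each of the 6 hormone horns exceeded every control horn, while 3 of 5 placebo horns did. Its level averaged -1.40 ± 0.31 in hormone horns (SD, n = 6) and -2.22 ± 0.18 in control gilts (SD, n = 4), and the fitted difference of 0.82 ± 0.17 (SE), a 1.76-fold higher level, had an adjusted p of 0.00669. Within the 3 scan days, each with 1 or 2 control gilts, the difference was 0.69, 0.91 and 0.77, and it passed on none of them. Leaving out any gilt kept the call (0.75 to 0.89), and without gilt 47 it was 0.75 (adjusted p = 0.00682). With slide as a term, which leaves only gilt 36 against gilt 9 on their shared slide for this comparison, it was 0.47 (adjusted p = 0.111).

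CD81 lay 0.24 to 0.95 (median 0.56) log2 units above the control mean in hormone horns, at 0.39, 0.77, 0.33, 0.33 and 0.76 in placebo horns and at -0.30 to 0.26 (median -0.00366) in control horns. The hormone and placebo values all exceeded the mean of every control gilt, though the hormone horn of gilt 41 was below the highest control horn. Its level averaged 3.83 ± 0.28 in hormone horns (SD, n = 6) against 3.23 ± 0.12 in control gilts (SD, n = 4). The difference of 0.61 ± 0.16 (SE) was 1.52-fold, with an adjusted p of 0.0193. It missed the threshold without control gilt 9, 14 or 28 (adjusted p = 0.0825, 0.0553 and 0.061), and held with slide as a term. Within scan days the difference of CD81 was 0.98, 0.31 and 0.56, passing on none.

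For CD14 the hormone horns ranged from 0.25 to 2.50 (median 1.47) above the control mean, the placebo horns stood at 0.17, 1.41, 1.78, 0.57 and 3.02, and the control horns spanned -0.38 to 0.61 (median -0.0805). Gilts 47 and 41 were the highest in either horn, and the hormone horn of gilt 40 and the placebo horns of gilts 36 and 44 lay within the range of control horns. Mean levels were 1.10 ± 0.85 in hormone horns (SD, n = 6) and -0.33 ± 0.29 in control gilts (SD, n = 4), a difference of 1.43 ± 0.41 (SE; 2.69-fold; adjusted p = 0.0319). The call was lost without any 1 of gilts 9, 14, 28, 38, 41, 44 and 46 (adjusted p from 0.0517 to 0.106), with slide as a term (0.83, adjusted p = 0.139), and when control values were averaged per gilt (adjusted p = 0.102). Without gilt 47 it was 1.21 (adjusted p = 0.0257). Within scan days it was 1.41, 0.99 and 2.09, and passed on none. A dimmer probe of CD14 rose by 2.09 (adjusted p = 0.00899) and in placebo horns by 1.83 (adjusted p = 0.0381).

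**Figure D2:**
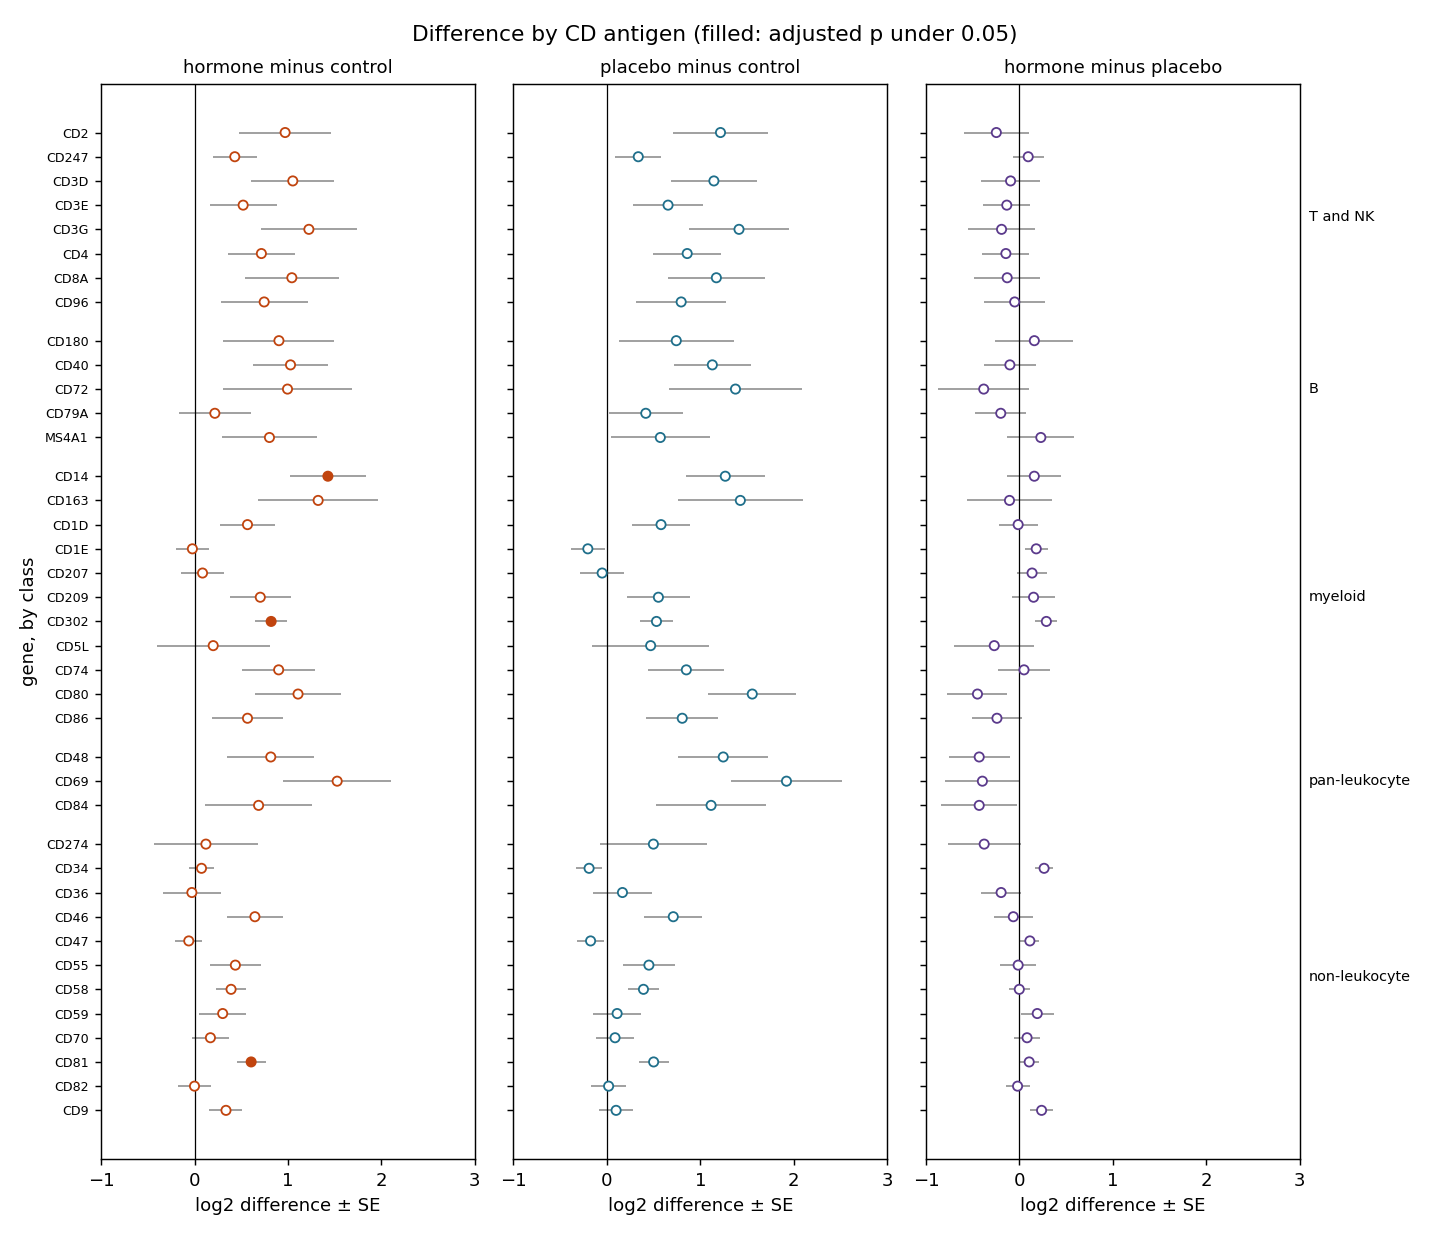
Fitted log2 difference ± SE (horizontal axis) of the CD antigens (rows, by class) for hormone horns minus control gilts, placebo horns minus control gilts and hormone minus placebo horns. Filled points passed at an adjusted p under 0.05: CD14, CD302 and CD81 in hormone horns, and none in the other comparisons. Most points of both panels against control gilts lie right of 0, and those between horns scatter around 0.

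In placebo horns, 0 of 40 antigens passed against control gilts, while 4.46% of all probes and 4.55% of named genes did. At an unadjusted p under 0.05, 15 of 40 members differed, against 23.7% of all probes and 27.7% of named genes. As in hormone horns, which share the control gilts, 36 of 40 differences were above 0 (44.2% of all probes, 58.6% of named genes), with a median of 0.62 over the members and 0.0770 over named genes. Without gilt 47, 31 of 40 were above 0. Within scan days 1, 2 and 3 the counts were 32, 26 and 37 of 40, with medians of 0.46, 0.37 and 1.41, again without shares of all probes. The largest difference in the reported fit was that of CD69, the early activation antigen of lymphocytes, at 1.92 ± 0.59 (SE; adjusted p = 0.0669). CD80 followed with 1.56 ± 0.47 (adjusted p = 0.0621), though a dimmer probe of CD80 gave 0.43 in placebo horns (adjusted p = 0.551). CD81 and CD302 had 0.50 and 0.53 (adjusted p = 0.0747 and 0.0804). All 5 placebo horns lay above all 4 control gilt means for CD2, CD3D, CD3G, CD69 and CD81, that is 5 of 40 members against 5.44% of all probes and 9.6% of named genes. For hormone horns the same held for CD302 and CD81, 2 of 40 against 6.27% and 11.9%. Because gilt 40 had no placebo horn, the fitted difference of placebo horns can depart from the plain difference of means.

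None of the T and NK antigens passed in any comparison of the reported fit. All 8 had a difference above 0 in hormone and in placebo horns, with medians of 0.86 and 1.00. These medians were 0.44 and 0.55 after normexp background correction of the median signals. CD3D, CD3E and CD3G are the chains that carry the signal of the T cell antigen receptor. CD3D stood at 0.10 to 3.28 (median 0.80) in hormone horns, at 0.62, 0.68, 0.77, 0.76 and 3.33 in placebo horns and at -0.75 to 0.65 (median -0.0248) in control horns. Its difference was 1.05 ± 0.44 in hormone horns (adjusted p = 0.13) and 1.14 ± 0.46 in placebo horns (adjusted p = 0.14), and 0.61 and 0.67 without gilt 47. The placebo values of the other gilts lay close together, just around or above the highest control horn, and gilt 47 lay far above. CD3G ordered the hormone horns alike, with -0.22 to 3.76 (median 1.11) in hormone horns, 1.03, 0.63, 0.81, 1.25 and 3.87 in placebo horns and -0.87 to 0.57 (median 0.0715) in control horns. Its differences were 1.22 ± 0.51 (adjusted p = 0.13) and 1.41 ± 0.53 (adjusted p = 0.12), yet a dimmer probe of the gene gave 0.24 and 0.11. The probes of CD3G thus disagreed in size.

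CD3E had -0.51 to 2.23 (median 0.38) in hormone horns, 0.11, 0.13, 0.26, 0.47 and 2.32 in placebo horns and -0.56 to 0.62 (median -0.0538) in control horns. Apart from gilt 47, no treated horn exceeded the highest control horn. The difference of CD3E was 0.52 in hormone horns and 0.65 in placebo horns, and 0.18 and 0.28 without gilt 47. CD2, an adhesion receptor of T and NK cells, lay at -0.64 to 3.39 (median 0.90) in hormone horns and 0.57, 0.79, 1.18, 1.07 and 3.33 in placebo horns, against -0.63 to 0.55 (median -0.0238) in control horns. All placebo horns exceeded the highest control horn, while the hormone horns of gilts 38 and 40 did not. Its difference was 0.97 ± 0.49 in hormone horns and 1.22 ± 0.51 in placebo horns, or 0.48 and 0.77 without gilt 47. CD247, the zeta chain of the same receptor complex, and CD96, a receptor that T and NK cells use to bind nectin-like ligands, had differences of 0.43 and 0.74 in hormone horns and 0.34 and 0.79 in placebo horns. Without gilt 47 CD247 had 0.26 in hormone and 0.17 in placebo horns, and CD96 0.25 and 0.36.

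The co-receptor of MHC class II, CD4, stood at 0.0743 to 2.25 (median 0.41) in hormone horns, 0.15, 0.14, 1.47, 0.46 and 2.40 in placebo horns and -0.54 to 0.26 (median 0.13) in control horns. Gilt 41 was next to gilt 47, and gilts 36, 40 and 44 lay within the control range in the hormone horn. CD8A, a chain of the co-receptor of MHC class I that NK cells of the pig also carry, stood at -0.19 to 3.50 (median 0.89) in hormone horns, 1.13, 0.11, 0.96, 0.80 and 3.50 in placebo horns and -0.69 to 0.65 (median 0.0113) in control horns. Gilts 36, 41 and 44 were above every control horn in both horns, and gilt 38 and the hormone horn of gilt 40 were not. The difference of CD8A was 1.04 ± 0.50 in hormone horns and 1.17 ± 0.52 in placebo horns, and of CD4 0.72 ± 0.36 and 0.86 ± 0.37. Without gilt 47 these were 0.55 and 0.67 for CD8A, and 0.41 and 0.52 for CD4. Over the whole class the median difference without gilt 47 was 0.45 in hormone horns and 0.59 in placebo horns, with all 8 still above 0.

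**Figure D3:**
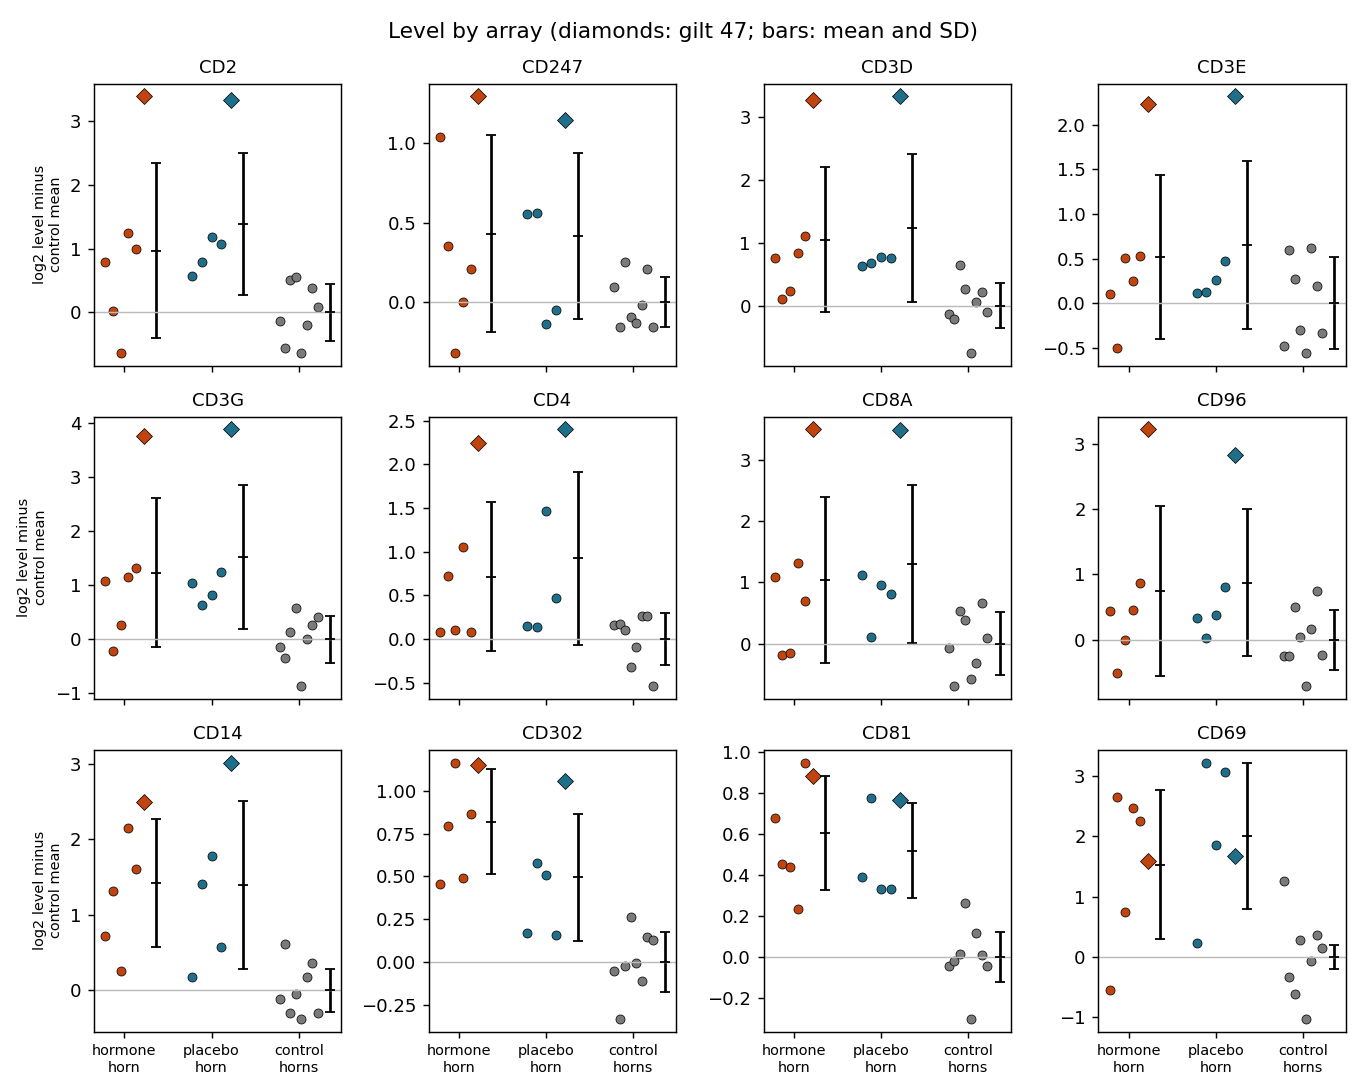
Log2 level relative to the mean of the 4 control gilts (vertical axis) of the 8 T and NK antigens, the 3 antigens that passed in hormone horns (CD14, CD302, CD81) and CD69, for 6 hormone horns, 5 placebo horns and 8 control horns. Diamonds are gilt 47. Bars give mean and SD, for control gilts over the 4 gilt means, and vertical scales differ between panels. Gilt 47 is the highest point of its group in all T and NK panels and not in that of CD69.

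B cell antigens were high in gilt 47. Their class median was near the control level in gilts 38 and 40, and above every control horn in both horns of gilts 41 and 44. All 6 antigens had a difference above 0 in hormone and in placebo horns, with medians of 0.91 and 0.81, and none passed. Without gilt 47 the medians were 0.33 and 0.12, and 5 and 4 of the 6 were above 0. CD72, an inhibitory receptor of B cells, was 4.81 and 4.76 log2 units above the control mean in the hormone and placebo horn of gilt 47 (28.1-fold and 27.2-fold). The other treated horns were at -0.78 to 1.40, and 3 of 5 hormone and 3 of 4 placebo horns among them exceeded the highest control horn.

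MS4A1, a membrane protein of mature B cells, lay at -0.16 to 3.08 (median 0.18) in hormone horns, -0.0991, 0.10, -0.0499, -0.0562 and 3.32 in placebo horns and -0.41 to 0.44 (median -0.0364) in control horns. Besides gilt 47, only the hormone horn of gilt 36 (1.40) exceeded the highest control horn, and the placebo horn of that gilt did not. Its difference of 0.80 ± 0.51 in hormone horns was 0.35 without gilt 47, and that of 0.57 ± 0.53 in placebo horns was -0.0507. CD79A, a signalling chain of the B cell receptor, lay at -0.54 to 2.20 (median -0.10) in hormone horns, -0.0495, -0.40, 0.41, 0.0936 and 2.43 in placebo horns and -0.27 to 0.25 (median 0.0019) in control horns. Gilts 41 and 47 alone exceeded the control horns. Its differences of 0.22 ± 0.39 and 0.42 ± 0.40 changed sign without gilt 47 (-0.18 and -0.0275).

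CD40, a costimulatory receptor of B cells, macrophages and other cells, had 1.03 ± 0.40 in hormone horns (adjusted p = 0.1) and 1.13 ± 0.41 in placebo horns (adjusted p = 0.11). Without gilt 47 these were 0.67 and 0.74. It passed in both without gilt 36, and a dimmer probe of it passed in both with all gilts (1.29, adjusted p = 0.0319, and 1.41, adjusted p = 0.045). CD180, a toll-like receptor homologue of B cells, had 0.90 in hormone and 0.74 in placebo horns, and 0.43 and 0.13 without gilt 47.

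Among the 11 myeloid antigens, 2 rose in hormone horns, CD14 and CD302, and 9 did not pass. That share, 18.2%, is near the 15.6% of named genes called in this comparison. Differences were above 0 for 10 of 11 in hormone horns (median 0.70) and 9 of 11 in placebo horns (median 0.58). CD163, the haemoglobin scavenger receptor of macrophages, lay at -0.48 to 4.60 (median 0.93) in hormone horns, -0.0136, 1.00, 1.46, 0.35 and 4.78 in placebo horns and -0.86 to 0.47 (median 0.0746) in control horns. Gilt 47 (24.2-fold and 27.5-fold above the control mean) was followed by gilts 41 and 38, and both horns of gilt 36 lay within the control range. The difference was 1.32 ± 0.64 in hormone horns (adjusted p = 0.196) and 1.43 ± 0.67 in placebo horns (adjusted p = 0.201), and 0.67 and 0.68 without gilt 47.

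CD80 and CD86, the ligands by which antigen-presenting cells costimulate T cells, had 1.11 and 0.57 in hormone horns and 1.56 and 0.81 in placebo horns. CD74, the invariant chain of MHC class II, had 0.90 and 0.85, and CD1D, which presents lipids, 0.57 and 0.58. Without gilt 47 the differences in hormone horns were 0.64 for CD80, 0.28 for CD86, 0.50 for CD74 and 0.36 for CD1D, and in placebo horns 1.15, 0.54, 0.45 and 0.29 in the same order. Gilt 47 held the 2 highest arrays for all 4 of them. This was not so for CD302, though it was raised in the hormone horn (1.15) and the placebo horn (1.06) of gilt 47, or for 3 other myeloid antigens. CD1E, CD207 (langerin) and CD209 (DC-SIGN) stood at -0.0694, -0.0733 and 0.67 in the hormone horn of gilt 47 and at 0.014, -0.0923 and 0.77 in its placebo horn. These values lay within the range of the control horns, which spanned -0.37 to 0.34 for CD1E, -0.82 to 0.70 for CD207 and -1.10 to 0.92 for CD209.

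The antigens of leukocytes at large are CD48 and CD84, of the SLAM family of adhesion receptors, and CD69. CD48 and CD84 were highest in gilt 47, by 2.93 and 3.46 in its hormone horn and 3.45 and 3.48 in its placebo horn. CD69 did not follow them. Its hormone horns read -0.55 in gilt 36, 2.65 in gilt 38, 0.74 in gilt 40, 2.47 in gilt 41, 2.26 in gilt 44 and 1.59 in gilt 47. The placebo horns read 0.22, 3.22, 1.85, 3.06 and 1.68, and control horns -1.03 to 1.25 (median 0.0384). Gilts 38, 41 and 44 exceeded gilt 47 in both horns, and gilt 36 lay within the control range. In hormone horns the difference was 1.53 ± 0.58 (SE; adjusted p = 0.0917), and 1.51 without gilt 47. The horns of control gilt 9 had a P minus L difference of -2.28 for this gene, larger in size than the difference between horns in any of the 5 treated gilts with both.

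Non-leukocyte and widely expressed antigens had smaller differences, with a median of 0.24 in hormone horns and 0.14 in placebo horns, and 0.19 and 0.079 without gilt 47. CD81 rose in hormone horns and the other 11 did not pass. The tetraspanin CD9 lay at -0.17 to 0.92 (median 0.35) in hormone horns, 0.42, 0.44, -0.00974, -0.0375 and -0.0634 in placebo horns and -0.18 to 0.17 (median 0.000169) in control horns. Gilt 47 was not raised, and the hormone horns of gilts 36 and 44 were the highest. Its difference was 0.34 ± 0.18 in hormone horns and 0.098 ± 0.18 in placebo horns. Dimmer probes of CD9 gave 0.32 to 0.71 in hormone horns and 0.15 to 0.41 in placebo horns. None of them passed, and the smallest adjusted p was 0.0511, in hormone horns. CD82, another tetraspanin, had -0.000578 and 0.018, although a dimmer probe of it rose by 0.53 in hormone horns (adjusted p = 0.0396).

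CD34, a sialomucin of vessel endothelium and blood progenitors, lay at -0.29 to 0.54 (median 0.068) in hormone horns, -0.47, -0.14, -0.24, 0.18 and -0.32 in placebo horns and -0.17 to 0.15 (median 0.0145) in control horns. The groups overlapped, with a difference of 0.0743 ± 0.14 in hormone horns and -0.19 ± 0.14 in placebo horns. A dimmer CD34 probe passed in hormone horns at 0.51 (adjusted p = 0.0431). The complement regulators CD46, CD55 and CD59 had 0.65, 0.44 and 0.30 in hormone horns and 0.71, 0.45 and 0.11 in placebo horns. CD46 was raised in gilt 47 (1.45 and 1.50), but also in the placebo horn of gilt 41 (1.53) and the hormone horn of gilt 40 (1.25). CD274, the inhibitory ligand PD-L1, was 2.68 and 3.63 above the control mean in the hormone and placebo horn of gilt 47. In the other treated horns it lay at -1.17 to 0.54, so that its difference in hormone horns was 0.12 with and -0.39 without that gilt. CD47, the signal that restrains phagocytes, CD58, the ligand of CD2, and CD70, the ligand of CD27, had -0.0619, 0.39 and 0.17 in hormone horns and -0.17, 0.39 and 0.0869 in placebo horns. Without gilt 47 the placebo values of CD47, CD55, CD59 and CD70 were -0.28, 0.23, -0.0142 and 0.0221.

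Set per gilt, the class medians showed where the leukocyte signal lay. In gilt 47 the median T and NK antigen was 3.25 and 3.08 log2 units above the control mean, hormone horn before placebo horn. The median B cell antigen was at 3.17 and 3.45, and the median myeloid antigen at 1.99 and 1.98. The median non-leukocyte antigen of that gilt was 0.54 and 0.62. In the other treated gilts the T and NK median was -0.0858 to 0.95 in hormone horns and 0.35 to 0.79 in placebo horns, against -0.61 to 0.38 in control horns. Gilts 36, 41 and 44 lay above all control horns in both horns, gilt 38 and the hormone horn of gilt 40 within their range. For B cell antigens the other treated gilts were at -0.21 to 0.80 in hormone and -0.0384 to 0.56 in placebo horns, against -0.20 to 0.29 in control horns. There gilts 41 and 44 exceeded all control horns in both horns, and gilt 36 in the hormone horn only. For myeloid antigens they were at 0.30 to 0.63 in hormone and 0.17 to 0.83 in placebo horns, against -0.38 to 0.34 in control horns. Differences between classes were not tested.

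**Figure D4:**
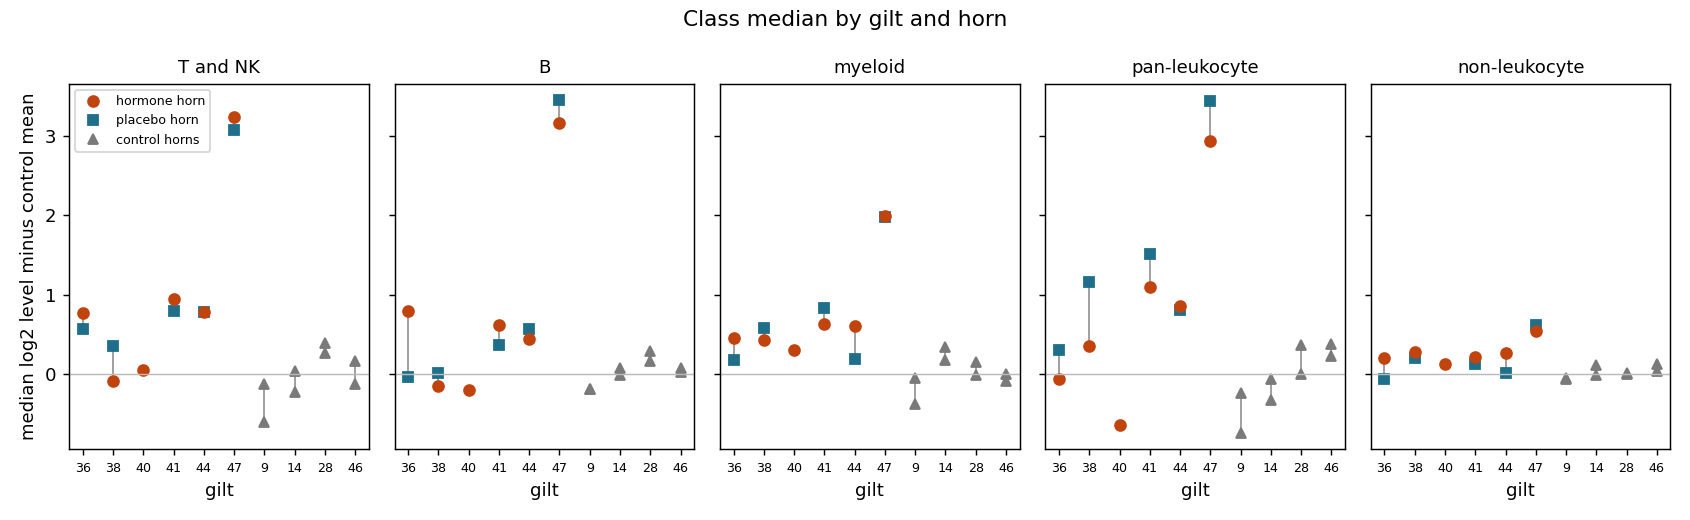
Median log2 level relative to the control mean over the antigens of each class (panels), by gilt (horizontal axis), for hormone horns (circles), placebo horns (squares) and control horns (triangles), with lines joining the horns of a gilt. The horns of gilt 47 lie together near the top of every leukocyte panel, and no array exceeds 0.62 for non-leukocyte antigens.

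Without gilt 47, the median difference in hormone horns against control gilts was 0.45 for T and NK, 0.33 for B cell and 0.50 for myeloid antigens, and CD14, CD302 and CD81 again were the only members to pass. The values of CD302, CD69 and CD81 moved little, to 0.75, 1.51 and 0.55, and that of CD14 went from 1.43 to 1.21. Those of CD163, CD72 and CD2 moved by more, to 0.67, 0.23 and 0.48. Without both gilt 47 and the hormone horn of gilt 36, CD14 and CD302 passed and CD81 did not (0.51, adjusted p = 0.0607). Without gilt 36 the count was 6, with CD40, CD69 and CD80 added, and in placebo horns it was 5, namely CD14, CD302, CD40, CD69 and CD80. In that fit 13.4% of all probes were called in hormone horns and 8.21% in placebo horns, so more probes were called in general.

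**Figure D5:**
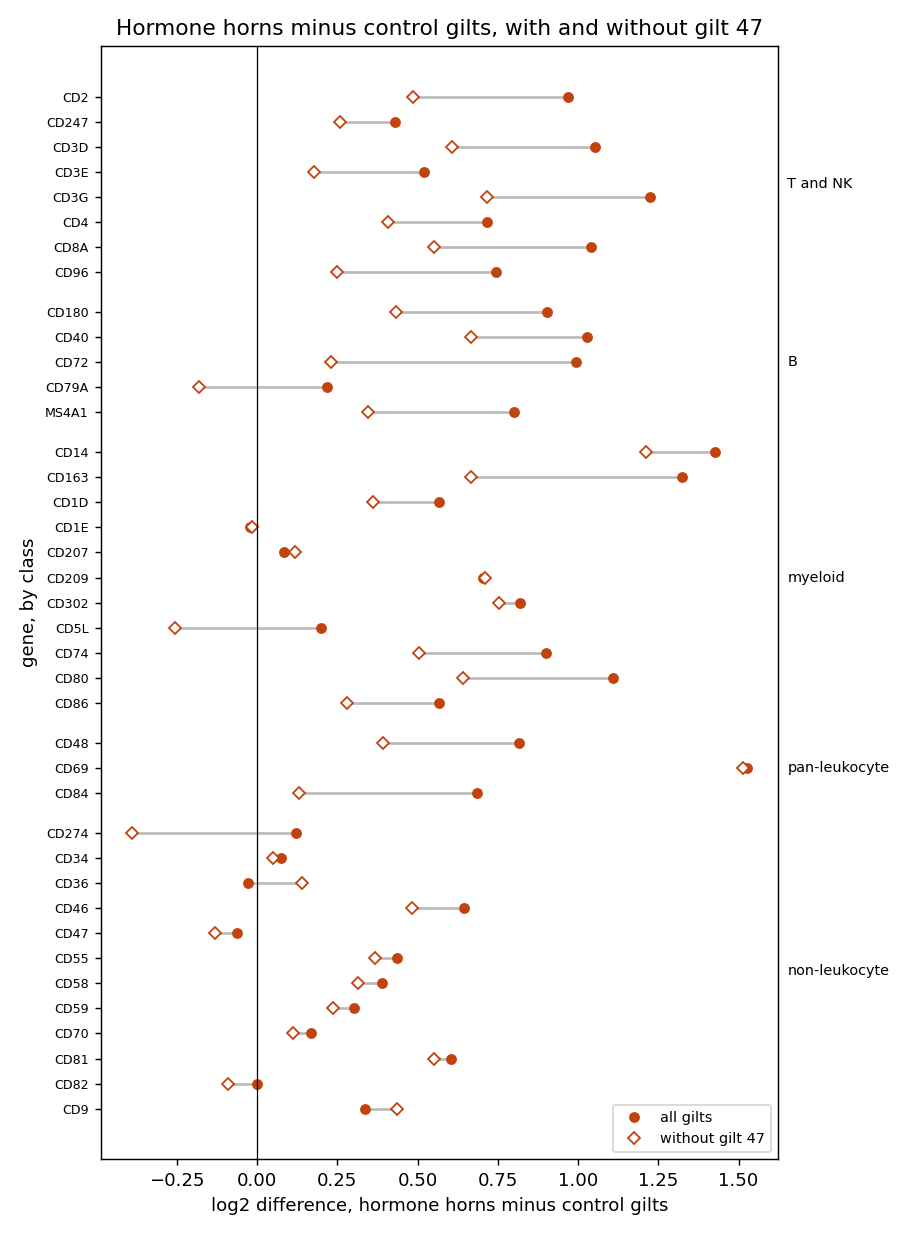
Fitted log2 difference of hormone horns minus control gilts (horizontal axis) for the CD antigens (rows, by class), with all gilts (filled) and without gilt 47 (open). Most leukocyte antigens move left without gilt 47, CD14 among them (-0.21), while CD302, CD69, CD209, CD1E, CD207, CD81 and most other non-leukocyte antigens move little. Of the non-leukocyte antigens, CD274 moves left, CD46 by -0.16 and CD36 by 0.17.

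Between the horns of a gilt, 0 of 40 antigens passed, as did 0.00256% of all probes, and 2 of 40 had an unadjusted p under 0.05, against 9.92% of all probes and 12.1% of named genes. In all 5 gilts with both horns the hormone horn was marked P and the placebo horn L, so hormones and mark cannot be told apart here. A difference above 0 was seen in 16 of 40 members, against 62.7% of all probes. The 2 with an unadjusted p under 0.05 were CD302 (0.29 ± 0.12, SE; adjusted p = 0.445) and CD34 (0.27 ± 0.0955; adjusted p = 0.385). Hormone minus placebo differences of CD302 were 0.28, 0.21, -0.0153, 0.71 and 0.0927 in gilts 36, 38, 41, 44 and 47, and of CD34 0.34, 0.12, -0.0478, 0.36 and 0.51. Each was above 0 in 4 of 5 gilts, with gilt 41 the exception. The hormone horn exceeded the placebo horn in all 5 gilts for 0 of 40 members, against 5.36% of all probes and 6.48% of named genes. It was below the placebo horn in all 5 for CD84 (-0.39, -0.62, -0.28, -0.00153 and -0.0146), 1 of 40 against 2.42% of all probes and 2.41% of named genes, and the smallest of these differences were close to 0. The median over T and NK antigens was -0.13, over B cell antigens -0.0299, over myeloid antigens 0.0503 and over non-leukocyte antigens 0.0413, while the median over all probes was 0.0621. The range of the members was -0.45 (CD80) to 0.29 (CD302). With gilt as a fixed term, which rests on the gilts with both horns, again 0 of 40 passed, against 0.0409% of all probes. In that fit 4 had an unadjusted p under 0.05 and 19 were above 0, counts for which no share of all probes was computed. Its medians were -0.0529 for T and NK, -0.0172 for B cell, 0.12 for myeloid and 0.05 for non-leukocyte antigens.

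The median absolute difference between hormone and placebo horn of a treated gilt was 0.23 log2 units, and between the horns of a control gilt 0.19. For T and NK antigens the horns of treated gilts differed by a median of 0.11 and those of control gilts by 0.30. In control gilts, horns marked P against horns marked L gave 0 of 40 calls, also at an unadjusted p under 0.05, where 2.44% of all probes and 2.29% of named genes were called. Of the 40 differences 15 were above 0, against 49.8% of all probes and 46.4% of named genes. The members' median there was -0.0460.

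For 20 members more than 1 probe was tested, and in hormone horns against control gilts the probes of 18 had the same sign. CD36 and CD82 were the exceptions, with differences near 0 for most of their probes. The widest gaps were seen for CD3G, CD72 and CD80, whose probes spanned 0.24 to 1.22, 0.99 to 1.85 and 0.41 to 1.11.

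Leukocyte antigens whose genes carry other names were also highest in gilt 47. Of 42 such genes listed, 22 were measured, and 2 rose in hormone horns, where 15.6% of named genes were called: MRC1, the mannose receptor of macrophages (0.82, adjusted p = 0.039), and FAS, the death receptor (0.61, adjusted p = 0.0417). In placebo horns 1 rose, FAS (0.80, adjusted p = 0.0326). The list median was 2.18 and 2.15 above the control mean in the horns of gilt 47, against -0.20 to 0.59 in the other hormone horns, 0.0685 to 0.71 in the other placebo horns and -0.29 to 0.23 in control horns. Of 10 genes of T cell receptor signalling only LCK was measured, and of 10 of B cell receptor signalling BTK, SYK and XBP1, and none passed. LCK, the kinase that phosphorylates the CD3 chains, had 0.34 and 0.36 in gilt 47, where the T cell antigens were over 1 log2 unit above the control mean.

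Of 10 macrophage genes 8 were measured, and LYZ, which encodes lysozyme, alone rose, by 2.54 in hormone horns (adjusted p = 0.0104) and 2.66 in placebo horns (adjusted p = 0.0253). Of 8 neutrophil genes 6 were measured, and 3 rose in hormone horns and 2 in placebo horns. In these comparisons 15.6% and 4.55% of named genes were called. Both lists were chosen with earlier results of these data known, so their values are descriptive. In hormone horns S100A8, S100A9 and S100A12, calcium-binding proteins of neutrophils and monocytes, rose by 6.42, 5.65 and 4.79, and in placebo horns S100A8 and FCN1 rose by 4.34 and 2.76. The neutrophil median lay at 1.75 to 6.55 in hormone horns and -0.70 to 7.50 in placebo horns, against -0.81 to 0.52 in control horns, so all 6 hormone horns exceeded every control horn, gilt 47 among them. Of the placebo horns, that of gilt 44 alone lay within the control range. The median of the CD antigens of myeloid cells spanned 0.30 to 1.99 in the same hormone horns.

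Markers of other tissue compartments moved in the same comparison, in which 11.8% of all probes and 15.6% of named genes were called. In hormone horns 3 of 4 measured epithelial genes rose (EPCAM 0.70, CLDN4 1.36 and CDH1 0.95), as did 2 of 4 stromal genes (COL1A2 0.75 and THY1 2.40) and 4 of 6 endothelial genes, among them FLT1 (1.30), VWF (0.79) and ENG (0.64). In placebo horns, where 4.55% of named genes were called, the same 3 epithelial genes rose, and no stromal or endothelial gene passed. The epithelial median was 0.65 to 1.09 in hormone horns and 0.40 to 0.94 in placebo horns, against -0.67 to 0.24 in control horns. The endothelial median was 0.47 to 1.08 in hormone horns and 0.000829 to 1.25 in placebo horns, against -0.26 to 0.30 in control horns. Their part in the differences of CD14, CD81 and CD302 was not tested.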

How the data were processed

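Endometrial RNA of 10 gilts was hybridised to 19 one-colour Cy3 Agilent arrays. Per the labels' protocols, RNA was isolated with TRIzol. The intensity used is the processed signal of the deposited scanner files, background-subtracted within each array by Agilent Feature Extraction 10.7.3.1 per the file headers, where the submitters' processing notes name version 9.1. The authors' deposited value table holds log2 values, with medians of 7.72 to 7.83 and a correlation of 0.996 to 0.999 with the scanner values of each array. How it was normalized is not stated in the labels or headers, and the table was one of the alternatives.

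Control spots and outlier flags were left out, and log2 signals were set relative to each array's 75th percentile. A probe had to be well above background on 4 or more arrays, and the 39094 that passed were fitted together in limma 3.58.1 (R 4.3.3, statmod 1.5.0), with 4 groups, gilt as a random block (correlation 0.536) and eBayes with trend. Benjamini-Hochberg adjustment ran over all probes, and the threshold was 0.05. Control is the mean of the L and P groups. Arrays with the same gilt number come from the same animal, and their deviations from group means correlated at 0.336 to 0.795 (hormone and placebo horns) and 0.403 to 0.628 (control horns). Comparisons with control gilts set animals against animals while the fit counts arrays with 1 common correlation, so an adjusted p can be too small for genes that vary much between gilts.

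Symbols came from RefSeq accessions matched to RefSeq's pig genes (Sscrofa11.1). A single gene was found for 6876 of 43603 probes, and 6768 of these a symbol that is not a placeholder. One member counted among the 40 is not reported here. The others may be named, values by array are given for members that passed and for main lineage antigens, and up to 3 genes are named per other list and comparison. Members, classes and lists were chosen with earlier results of these data known. Alternatives covered normalization, background correction, filters, blocks, slide, scan day and leaving out each gilt. Fits without the hormone horn of gilt 36, normexp on median signals and the preset correlation within scan days were chosen after seeing the data.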

Additional observations from a re-analysis of the deposited data

Results flagged for a closer look

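A member was set apart here when its highest or lowest array in a group of 4 to 6 lay far from the nearest other array by Dixon's criterion. This held in 21 of 160 combinations of member and group, and chance alone sets apart about 1 in 20. Values are log2 units from the mean of the control gilts. Of the 21, 15 were arrays of gilt 47, all high. In its hormone horn these were CD72 (4.81), CD79A (2.20), CD3D (3.28) and CD96 (3.22). In its placebo horn they were the B cell antigens CD180 (3.59), CD79A (2.43) and MS4A1 (3.32), the T and NK antigens CD2 (3.33), CD3D (3.33), CD3E (2.32), CD3G (3.87) and CD96 (2.83), and CD1D (1.87), CD74 (2.72) and CD274 (3.63). The other 6 were control horns with smaller gaps. The L horn of gilt 14 was apart for CD1E (0.34), CD34 (-0.13) and CD82 (0.12), the L horn of gilt 46 for CD4 (-0.32), the P horn of gilt 46 for CD209 (-1.10), and the P horn of gilt 9 for CD58 (-0.34).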

How the results depend on the processing

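The count of antigens passing in hormone horns against control gilts was 3 in the reported fit, with no replicate block, with quantile normalization, with normexp on median signals and in the authors' deposited table. It was 4 with scan day as a term (CD40 added), 2 with control horns averaged per gilt and no replicate block (CD302, CD81), and 11 with slide as a term, which leaves gilts 36 and 9 on 1 slide and whose p-values measure arrays, and 0, 0 and 0 within the scan days. Leaving out 1 gilt at a time gave 1 to 6, with 1 (CD302) without control gilt 9, 14 or 28 and 6 without gilt 36. In placebo horns the count of 0 became 3 with no replicate block (CD14, CD69, CD81), 1 with normexp on median signals (CD69), 1 with scan day as a term (CD80), 10 with slide as a term, and 0 to 5 leaving out 1 gilt, with 5 without gilt 36. Between horns it stayed at 0 in every fit, also with the replicate block as a fixed term. With normexp on median signals the median difference of T and NK antigens was 0.44 in hormone horns and 0.55 in placebo horns (0.86 and 1.00 in the reported fit), and in hormone horns that of B cell antigens 0.54 (0.91) and of myeloid antigens 0.46 (0.70). Some differences of members that did not pass changed sign. Leaving out 1 gilt at a time gave -0.0184 to 0.15 for CD34 and -0.18 to 0.37 for CD79A in hormone horns, and -0.0275 to 0.59 for CD79A and -0.0507 to 0.75 for MS4A1 in placebo horns. CD34 in hormone horns had -0.0035 with quantile normalization, -0.0184 without gilt 44, -0.18 with slide, and -0.0179 and -0.00741 within scan days 2 and 3. CD79A had -0.18 without gilt 47, -0.25 also without the hormone horn of gilt 36, and -0.0254 and -0.14 within scan days 1 and 2, and in placebo horns -0.0275 and -0.0232 under those exclusions. MS4A1 in placebo horns had -0.0507 and -0.0182. Within scan day 2, MS4A1 had -0.00875 in hormone and -0.25 in placebo horns, CD3E -0.0406 and -0.0949, and CD9 -0.20 in placebo horns. The cause was not tested. Of 696 values of single members under an alternative, 643 kept direction and side of the threshold. The scan days hold 1 or 2 control gilts each, and 0 calls there say little.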

Other observations

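CD36, a fatty acid and scavenger receptor of endothelium, adipocytes and macrophages, had a difference of -0.0287 in hormone horns and 0.17 in placebo horns (0.14 and 0.34 without gilt 47) while its level varied widely between treated gilts. Hormone horns stood at -0.82, 0.96, 0.54, -0.87, 0.90 and -0.88 log2 units from the control mean in gilts 36, 38, 40, 41, 44 and 47, and placebo horns at -0.0445, 0.69, -0.15, 0.67 and -0.63 in the 5 gilts with both. Control horns lay between -0.19 and 0.14. Gilts 38 and 44 were above every control horn in both horns, and gilt 47 was below every control horn in both.

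CD5L, a secreted protein of macrophages, varied between control gilts too. Hormone horns stood at 1.00, -0.23, -2.32, 0.29, -0.00705 and 2.47 in the same order, placebo horns at 0.49, 0.12, 0.83, -0.17 and 2.43, and control gilt 14 at 1.00 and 1.57 in its P and L horn, against -0.82 and -0.99 in those of gilt 9. The hormone horn of gilt 40 was the lowest of all 19 arrays for this gene and, among others, for CD180 (-1.44), CD274 (-1.17), CD72 (-0.78) and CD84 (-1.12). That array also had the most spots with outlier flags (155), and 82.0% of its spots were well above background, in a range of 79.1% to 88.4% over all arrays.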
